A study of Arabidopsis thaliana with 6 samples.

Results

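The CCT motif family genes described here are 10 Arabidopsis loci that carry a CCT motif without the B-box, receiver or GATA domains of better known CCT proteins. They were chosen by family membership around AT1G07050, which was itself selected on its increase in 35S:PCO1 on these arrays, so its own change is given as a description and was not tested again. The question was whether that increase was shared by the rest of the family. Each gene was represented by a probe set that names it alone, and 9 of the 10 genes had one, among 13286 loci with such a probe set in all. The remaining member, ASML2 (AT3G12890), an activator of sugar-inducible genes, was not analysed here. No gene was left out for a low signal.

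Gene expression was measured in whole Arabidopsis thaliana plants of 2 genotypes, with 3 Affymetrix arrays each. The groups were the wild type and 35S:PCO1, a transgenic line in which the 35S promoter, active in most plant cells, drives plant cysteine oxidase 1. Both groups spent 4 h in darkness at 5% oxygen, starting in the morning, after growth in short days of 8 h light and 16 h darkness. Without plants kept in normal air, the values set one hypoxic genotype against the other and say nothing of induction by hypoxia. One label field gives whole rosettes at 4 weeks and another gives whole plants at 5 weeks. The labels do not say how many independent transgenic lines were used, nor whether replicates came from separate plants, so errors and p-values reflect the scatter of these arrays, part of which can be technical.

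The CCT motif is a short stretch rich in basic residues, named after CONSTANS, CONSTANS-LIKE and TOC1, that serves nuclear localisation and, in CONSTANS, contact with DNA together with NF-Y subunits. CCT proteins are best known in leaves for photoperiodic flowering and the circadian clock, whereas single-CCT genes are less studied. Plant cysteine oxidases use oxygen to mark group VII ethylene response factors for degradation, and these factors switch on hypoxia genes.

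The arrays held 22746 probe sets besides controls, with values on the log2 scale between 2.73 and 13.79. Pairs of arrays correlated between 0.994 and 0.999 across probe sets. Wild type replicate 2 lay away from the other arrays on the first principal component, with a score of -18.8 where the others lay between -6.13 and 11.6. That component also ordered the genotypes, with scores up to -0.956 in wild type and from 5.80 in 35S:PCO1. The differences between 3 prime and 5 prime control signals did not separate the genotypes for GAPDH, actin or ubiquitin (exact 2-sided permutation p of 1, 0.3 and 0.4, where 3 against 3 arrays cannot go below 0.1). Wild type replicate 2 stood out here as well, at 0.813 for GAPDH and 1.78 for actin where the wild-type means were 0.457 and 1.57. For ubiquitin it did not, at 0.980 beside a wild-type mean of 1.02 (SD 0.072). PCO1 itself is not analysed here, as no probe set is paired with it, and the labels could not be checked against the transgene. Of 12 leaf markers 3 had a probe set, RCA, PSAN and LHCB4.1, and all were bright, between 12.3 and 13.3. Root markers with a probe set were 5 of 12, between 3.80 and 7.30. No flower or seed marker had one. A change in these plants can be fewer cells of a type or less RNA per cell, which cannot be told apart in such bulk samples.

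AT1G07050, also called FITNESS, encodes a CCT protein linked to reactive oxygen and to the balance of defence and seed yield. Given in replicate order, as throughout, its log2 signal was 7.55, 7.48 and 7.56 in wild type against 8.19, 8.24 and 8.19 in 35S:PCO1. The lowest 35S:PCO1 array lay 0.63 log2 units above the highest wild-type array, where the SD was 0.042 in wild type and 0.031 in 35S:PCO1 (n = 3 each). The log2 change, 35S:PCO1 minus wild type, was 0.68 (SE 0.057, 95% interval 0.55 to 0.81), or 1.60-fold. This change was the 23rd highest of all probe sets. With each array left out in turn it lay between 0.65 and 0.69. These values describe the gene that the choice rested on and support nothing further.

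**Figure D1:**
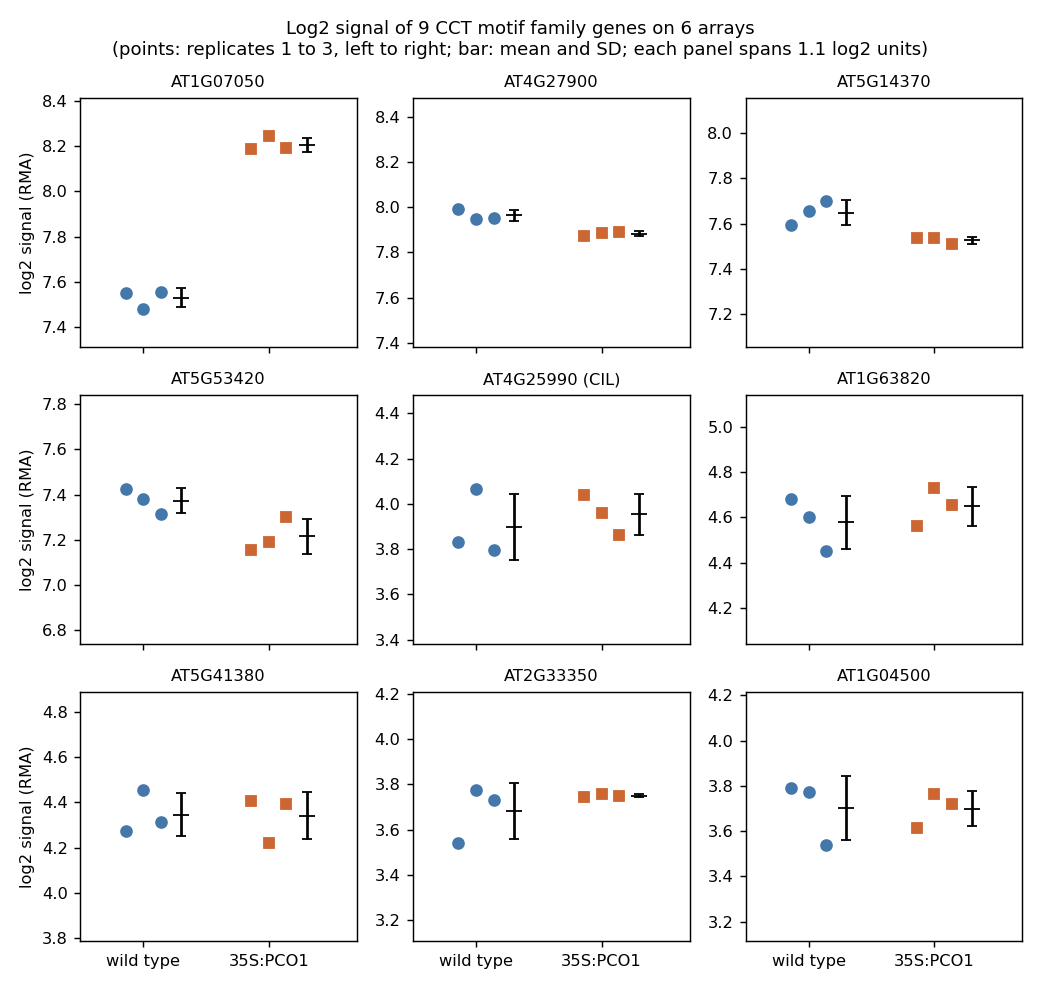
Log2 signal (y axis, RMA values) of the 9 measured CCT motif family genes in wild type (circles) and 35S:PCO1 (squares) on 3 arrays each, with mean and SD beside them; every panel spans 1.1 log2 units. In AT1G07050 the 35S:PCO1 arrays sit between 8.19 and 8.24 and the wild-type arrays between 7.48 and 7.56, and no other gene has groups that far apart.

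None of the 8 other measured members was called between the genotypes. A call was an adjusted p under 0.05 by limma with Benjamini-Hochberg adjustment over all probe sets, which 60 probe sets reached, or 0.264% of those tested. Among the 8 members, 1 had an unadjusted p under 0.05, where 10.4% of all probe sets did. Their log2 changes ran from -0.16 to 0.071, with 5 negative and 3 positive, and their median was -0.0035 beside -0.012 over all probe sets. The upper ends of their 95% intervals reached 0.25 at most. The change of AT1G07050, at 0.68, stands beside these as a description only, since that gene was selected for being high. With the spread of each gene, a log2 change between 0.35 and 0.56 in size would have been called. Smaller differences than that were not detectable as calls, so the missing calls do not show that these genes were equal in both genotypes.

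**Figure D2:**
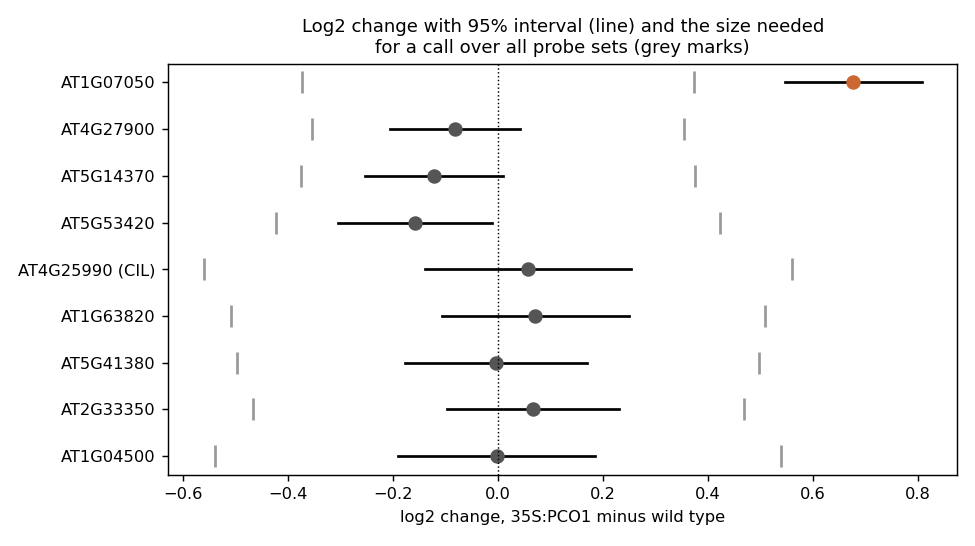
Log2 change (x axis, 35S:PCO1 minus wild type) of each gene as a point, with its 95% interval as a line and grey marks at the size that would have been called over all probe sets. The upper ends of the 8 intervals besides AT1G07050 reach 0.25 at most; AT1G07050, selected for its increase, runs from 0.55 to 0.81.

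The 8 genes fell into a brighter and a dimmer part. AT4G27900, AT5G14370 and AT5G53420 lay above the 40th percentile of mean signal, a value of 5.15, as AT1G07050 did. The other 5 lay below it, with values between 3.54 and 4.73, where the lowest value on the arrays was 2.73. In this low range RMA narrows differences. The SD within groups was pooled over both genotypes for each gene. This pooled SD was 0.019 to 0.067 in the 3 brighter genes and 0.087 to 0.12 in the 5 dimmer ones. By this pooled SD the brighter genes were measured more precisely.

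The 3 brighter genes all had slightly lower values in 35S:PCO1, opposite in sign to AT1G07050. AT5G53420, a CCT motif family gene without a symbol in the gene table, had log2 signals of 7.43, 7.38 and 7.31 in wild type and 7.15, 7.19 and 7.30 in 35S:PCO1. The groups did not overlap, but 35S:PCO1 replicate 3 lay only 0.016 below the nearest wild-type array. Its log2 change was -0.16 (SE 0.065, 95% interval -0.31 to -0.011, adjusted p = 0.45 by limma), or 1.12-fold lower. It was the member with an unadjusted p under 0.05, and 8.25% of all probe sets had a change as low or lower.

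AT5G14370, also without a symbol in that table, gave 7.59, 7.65 and 7.70 in wild type and 7.54, 7.53 and 7.51 in 35S:PCO1. The groups did not overlap, with 0.056 between their nearest arrays. The log2 change was -0.12 (SE 0.058, 95% interval -0.25 to 0.0094, adjusted p = 0.51 by limma). AT4G27900 gave 7.99, 7.95 and 7.95 in wild type and 7.87, 7.89 and 7.89 in 35S:PCO1, with an SD of 0.024 and 0.010. These groups did not overlap either, with a log2 change of -0.083 (SE 0.055, 95% interval -0.21 to 0.041, adjusted p = 0.65 by limma).

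That 3 of 8 members had their groups apart with 35S:PCO1 lower reads against a background of 10.5% of all probe sets. These 3 are the only ones of the 8 above the 40th percentile, where the share was 13.9% of probe sets. No gene among the 8 had its groups apart in the other direction, which 5.68% of all probe sets did. Members are not replicates, and none of these differences passed the test over all probe sets. All 3 changes stayed negative in each of the 12 alternative fits, with adjusted p between 0.15 and 0.90. After a repeated quantile normalization, however, AT5G53420 no longer had separate groups (-0.12), and the changes of AT5G14370 and AT4G27900 shrank to -0.074 and -0.040. Some tissue markers had lower values in 35S:PCO1 too. The mean log2 signal of the 5 measured root markers was 5.24 to 5.35 in wild type and 5.18 to 5.22 in 35S:PCO1, and their summed linear signal ran from 249.7 to 284 and from 239.6 to 245. Each of the 5 had overlapping groups and none was called. Their log2 changes were -0.18 for PYK10, -0.10 for EXPA7, -0.084 for EXPA18, -0.092 for GH9C1 and 0.0049 for AT1G30870. EXPA18, GH9C1 and AT1G30870 lay below the 40th percentile of mean signal, where RMA narrows differences. PYK10 was highest on wild type replicate 2 and had a change of -0.066 without that array. The leaf markers were at -0.10 for PSAN, -0.056 for LHCB4.1 and 0.039 for RCA, also with overlapping groups and no call. The median change of probe sets above the 40th percentile was also slightly negative, at -0.027. The part of the markers or of this shift in the 3 lower members was not tested.

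**Figure D3:**
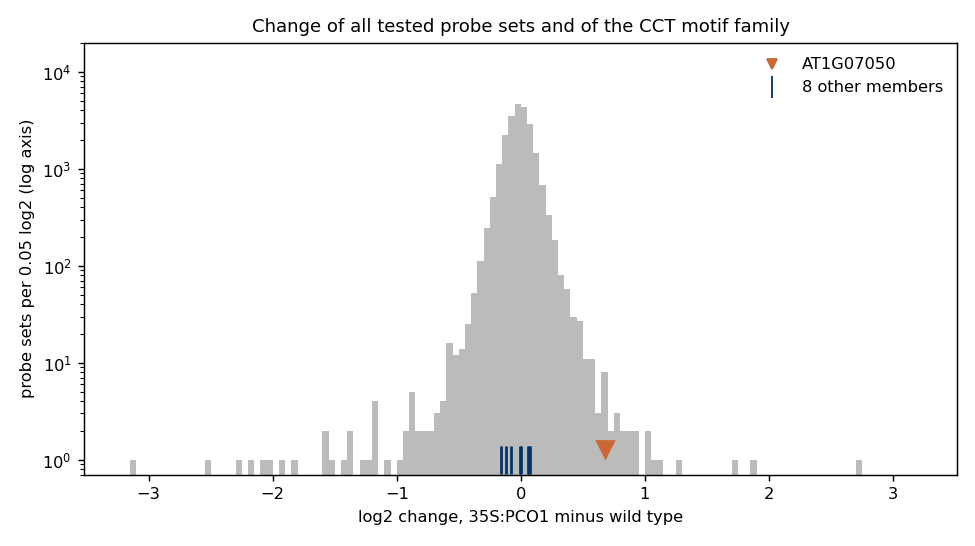
Distribution of the log2 change (x axis) over all 22746 probe sets, with the number of probe sets per bin on a log axis; the triangle marks AT1G07050 and the short lines the 8 other measured members. The 8 members lie between -0.16 and 0.071, in the bulk of the distribution, and AT1G07050 lies at 0.68 in its upper tail.

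The 5 dimmer members had overlapping groups. CIL (AT4G25990) is the close relative of CIA2, a regulator of genes for chloroplast protein import and chloroplast ribosomes. Its log2 signals were 3.83, 4.07 and 3.79 in wild type and 4.04, 3.96 and 3.86 in 35S:PCO1, with wild type replicate 2 the highest of the 6. The log2 change was 0.057 (SE 0.086, 95% interval -0.14 to 0.25). AT1G63820 had 4.68, 4.60 and 4.45 in wild type and 4.56, 4.73 and 4.66 in 35S:PCO1. The groups overlapped, with both ends of the range somewhat higher in 35S:PCO1. Its log2 change was 0.071 (SE 0.078, 95% interval -0.11 to 0.25).

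AT2G33350 had more widely spaced values in wild type, but a difference in spread was not tested. Its values were 3.54, 3.77 and 3.73 in wild type and 3.74, 3.76 and 3.75 in 35S:PCO1, an SD of 0.12 against 0.0068 (n = 3 each), and wild type replicate 1 alone set the wild type apart. The log2 change was 0.067 (SE 0.072, 95% interval -0.097 to 0.23), and without that array it was -0.0034. AT5G41380 had 4.27, 4.45 and 4.31 in wild type and 4.41, 4.22 and 4.39 in 35S:PCO1, and its log2 change was -0.0043 (SE 0.077). AT1G04500 had 3.79, 3.77 and 3.54 in wild type and 3.61, 3.76 and 3.72 in 35S:PCO1, and its log2 change was -0.0028 (SE 0.083). For both, the difference between the group means was far smaller than the SD within either group. The adjusted p of the 5 dimmer genes lay between 0.81 and 0.9955 by limma.

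**Figure D4:**
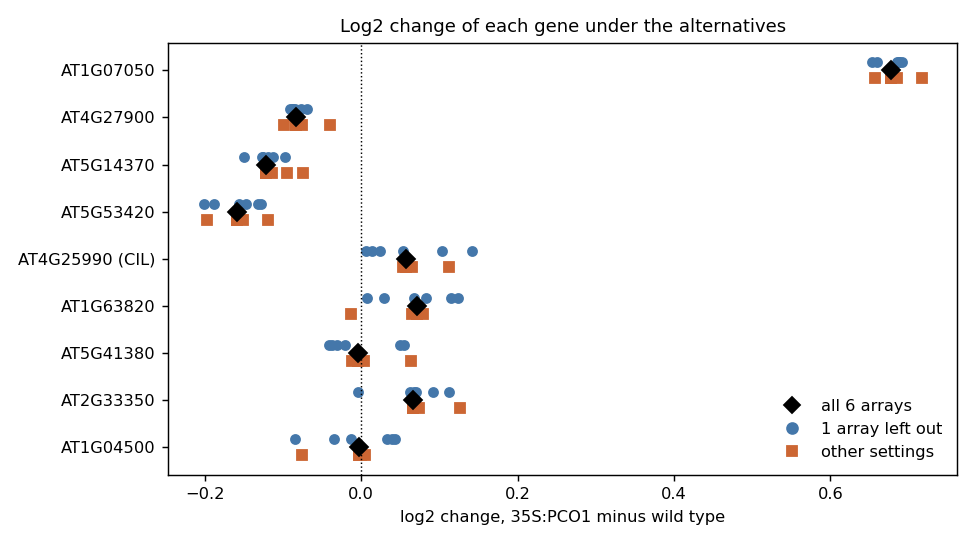
Log2 change (x axis) of each of the 9 genes with all 6 arrays (diamonds), with 1 array left out (circles) and under the other settings (squares); dim genes have no point under the signal filter. AT1G07050 stays between 0.65 and 0.72, AT4G27900, AT5G14370 and AT5G53420 stay below 0, and 4 of the 5 dimmer genes have points on both sides of 0.

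Few relatives of the family were measured. Of 3 further single-CCT genes 1 had a probe set, AT5G59990, with log2 signals of 3.84, 3.85 and 3.79 in wild type and 3.80, 3.63 and 3.68 in 35S:PCO1. Its groups overlapped slightly and its log2 change was -0.13 (SE 0.065, adjusted p = 0.55 by limma). Of 17 CONSTANS-like genes, which add B-boxes to the CCT motif, 1 had a probe set, AT2G47890 (COL13). It had 9.45, 9.46 and 9.57 in wild type and 9.37, 9.65 and 9.26 in 35S:PCO1, so that the 35S:PCO1 arrays held both the highest and the lowest value. Its log2 change was -0.070 (SE 0.098, adjusted p = 0.87 by limma). The 5 pseudo-response regulators of the clock and the 3 TIFY genes with GATA and CCT domains had no probe set paired with them and were not analysed here.

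Genes of the processes that CCT proteins are known for showed no call either, as far as they were measured. The share called over all probe sets was 0.264%, so no call among so few genes says little. Clock and photoperiod genes without a CCT motif were matched for 2 of 20. GIGANTEA (GI), which stabilises CONSTANS in long days, ranged widely within wild type, at 7.32, 7.70 and 7.04, and had 7.26, 7.46 and 7.38 in 35S:PCO1. Its log2 change of 0.015 had an interval from -0.32 to 0.34, and with 1 array left out the change lay between -0.14 and 0.19. A call for GI needed a change of 0.94, so smaller ones were not detectable as calls. AT1G69570, a Dof factor of a group that represses CONSTANS, had a log2 change of 0.098 (SE 0.064). Sugar-responsive and starch genes were matched for 1 of 20, DPE1, a plastid disproportionating enzyme of starch breakdown, at -0.068 (SE 0.059). For enzymes that remove reactive oxygen it was 3 of 16. The superoxide dismutase family gene AT3G56350 was at 0.057 (SE 0.073), the thylakoid ascorbate peroxidase TAPX at -0.035 (SE 0.065) and the stromal SAPX at 0.010 (SE 0.089). None of the 20 listed genes of chloroplast protein import had a probe set paired with it. The median of each list lay between -0.13 and 0.056, and with 1 to 3 genes a list these values describe the named genes only.

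Genes were also ranked by how closely they followed AT1G07050 across the 6 arrays. Likeness was measured as Pearson's r of the log2 signal over the 6 arrays, ranked over 13512 probe sets that name 1 gene. Since AT1G07050 splits the arrays into its 2 genotype groups, this r mainly ranks genes by how cleanly they split the same way, and it is given without a test. The highest was AT3G55760, which encodes the starch granule protein LESV, with r = 0.999. It had 7.31, 7.17 and 7.31 in wild type and 8.09, 8.15 and 8.13 in 35S:PCO1. In both genes wild type replicate 2 was the lowest array and 35S:PCO1 replicate 2 the highest. Ranking by r partly selects for such a shared order. On the first principal component over all probe sets, wild type replicate 2 was also lowest, at -18.8, and 35S:PCO1 replicate 2 highest, at 11.6. The shared order therefore has the same ends as that component and is not particular to these genes. The part of wild type replicate 2 in it was not tested. The log2 change of AT3G55760 was 0.86, larger than that of AT1G07050.

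The next were smaller in change. AT2G30160, a mitochondrial iron transporter, had r = 0.990 and a log2 change of 0.36. The alanyl-tRNA synthetase gene ALATS had r = 0.987 and a change of 0.18, AT5G27530 of the pectin lyase-like superfamily r = 0.984 and 0.27, and AT1G50020 r = 0.981 and 0.30. The lowest r belonged to AT4G26910, a subunit of the mitochondrial 2-oxoglutarate dehydrogenase complex, with r = -0.997 and a log2 change of -0.30. AT1G62500 of the lipid-transfer superfamily had r = -0.994 and a change of -1.36, and the Kelch-repeat gene AT3G27220 had r = -0.992 and a change of -1.40. The 8 other family members had r between -0.92 (AT4G27900) and 0.40 (AT1G63820). The ends of so long a ranking exceed a few genes fixed beforehand by selection, so this difference is no result about the family.

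**Figure D5:**
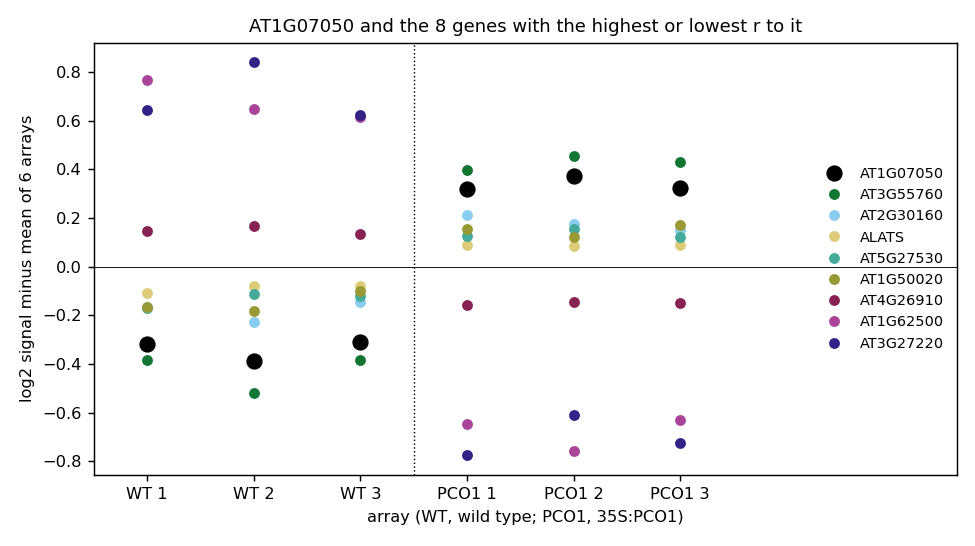
Log2 signal minus the mean of the 6 arrays (y axis) for AT1G07050 and, by r to it, the top 5 and bottom 3 genes, on each array (x axis). AT1G07050 and AT3G55760 are lowest on wild type replicate 2 and highest on 35S:PCO1 replicate 2; AT4G26910, AT1G62500 and AT3G27220 run the opposite way between the genotypes.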

How the data were processed

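Total RNA was labelled with biotin and hybridised to 1-colour Affymetrix Arabidopsis arrays, as the labels' protocols state. The authors deposited log2 values made with RMA, per the submitters' processing notes; its software, version and probe definition are not given in the sources used here. This method subtracts background, equalises the distributions of the arrays and combines the probes of a set, so that shifts of a whole array are lost and differences between dim values shrink. The file holds 22810 probe sets, of which 64 controls were left out. Of the rest, 13513 name 1 gene in an older platform annotation, with symbols renewed from the TAIR10.1 gene table, 503 name several and 8730 are not listed. All 9 measured members had 1 such probe set.

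Groups and replicate numbers came from the sample titles. A 2-sided test without covariates was run in R 4.3.3 with limma 3.58.1 (lmFit, then eBayes) and adjusted over the 22746 probe sets tested. The size needed for a call is the SE times the t value at the largest unadjusted p that was called. Members, relatives and lists were chosen by locus with earlier results of these data known. Named were all members, every measured gene of the lists, and the 5 highest and 3 lowest by r. The intended protein sequences are not shown. Alternatives were a replicate block, centring, array weights, the trend and robust options of eBayes, repeated quantile normalization, a signal filter, other thresholds and each array left out. The number of arrays limits the precision. The fit was tested on simulated data.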

Additional observations from a re-analysis of the deposited data

How the results depend on the processing

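No other member was called under any of the 14 alternatives, 12 fits and 2 thresholds, and none of the measured list genes in the 12 fits. The signal filter left out the 5 dimmer members and the dimmer list genes, so 11 fits cover these. The count over all probe sets was 60. It was 26 with the replicate block, 255 with array weights (78 higher, 177 lower), 28 at an adjusted p under 0.01, and 23 to 60 with 1 array left out: leaving out replicate 1 of the wild type gave 23, replicate 1 of 35S:PCO1 gave 24 and its replicate 3 gave 33. The replicate numbers did not pair the arrays (correlations of same-numbered deviations -0.059, -0.22 and -0.26), and the block changed no member's call. The median of the other members moved to -0.12 under the signal filter, which leaves only the 3 brighter genes. AT1G07050 rose to 0.72 with repeated quantile normalization. Some genes that were not called changed sign. Centring moves every change by the same amount, and with it AT5G41380 was at 0.0034 and AT1G04500 at 0.0049. Their changes in the main fit were -0.0043 (SE 0.077) and -0.0028 (SE 0.083). For the other settings the cause was not tested. With array weights, AT1G63820 was at -0.012, AT5G41380 at 0.064 and GI (AT1G22770) at -0.011. With repeated quantile normalization, the root marker AT1G30870 was at -0.0031. With 1 array left out, the ranges were -0.0034 to 0.11 for AT2G33350, -0.085 to 0.043 for AT1G04500, -0.041 to 0.055 for AT5G41380, -0.14 to 0.19 for GI, -0.035 to 0.039 for AT1G30870, -0.070 to 0.015 for TAPX (AT1G77490), -0.037 to 0.099 for SAPX (AT4G08390) and -0.18 to 0.012 for AT2G47890. The mean of several probe sets per gene was not run, since each of these genes has 1. Depth here is signal: the 5 dimmer members lie near the lower end of the scale, and among the 9 members their intervals are the widest.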
